A study of Mus musculus with 6 samples.

Results

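The neurotrophins, the glial cell line-derived factor GDNF and their receptors were examined in whole brains of mice that lack the neural cell adhesion molecule NCAM. The set held 8 genes, namely the ligands Bdnf, Ntf3 and Gdnf and the receptors Ntrk2, Ntrk3, Ngfr, Gfra1 and Ret. Its members were every probe set of the array whose annotation gives 1 of these symbols alone, which found 7 of 12422 probe sets, covering 6 of the 8 genes. Gdnf had 2 probe sets, and Bdnf, Ntrk2, Ntrk3, Gfra1 and Ret had 1 each. No probe set was annotated to Ntf3 or Ngfr alone, so these 2 genes were not analysed here.

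Total RNA came from the brains of 6 adult male mice of the C57BL/6J strain, with 1 Affymetrix one-colour array for each animal. The Ncam-/- group held 3 animals with a constitutive knockout of Ncam, so the gene was missing in every cell from conception and not in the adult alone. The Ncam+/+ group held 3 wild-type animals, described as having the same background. Replicates 1 and 2 of either genotype were 2 months of age, and replicate 3 was 3 months of age. The question was how the levels of these transcripts differ in a brain without NCAM.

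BDNF and neurotrophin 3 belong to the neurotrophins, secreted proteins that keep neurons alive in development and adjust synapses in the adult brain. BDNF acts through the receptor tyrosine kinase TrkB, encoded by Ntrk2, and neurotrophin 3 through TrkC, encoded by Ntrk3, while the Ngfr product binds all neurotrophins. GDNF is a survival factor for dopamine and motor neurons that binds GFRα1, the product of Gfra1, and then signals through the tyrosine kinase RET or, where RET is missing, through NCAM itself.

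Transcription of Bdnf starts at several separate promoters, and a window at 1 of them is shown because it holds a site of the kind through which the factor CREB drives Bdnf in active neurons. In the RefSeq promoter table of build GRCm38.p6, whose windows span 300 bases around each annotated start, Bdnf had 7 windows and Gdnf had 2. Both strands were searched for TGACGT, the core of a CREB site, which 2468 of 32851 windows (7.51%) held on either strand. Among 14 windows of the member genes it was found in 2, both on the plus strand of the chromosome as its reverse complement, ACGTCA. In the Bdnf window the core is part of TCACGTCA, a longer run that 145 of all windows (0.441%) held and that begins 38 bases before the start. In the Gdnf window the core begins 51 bases before the start. The full palindrome TGACGTCA, also searched, was in 588 of all windows (1.79%) and in 0 of the 14 windows of the member genes. The windows of Ntrk2, Gfra1, Ngfr and Ntf3 did not hold these letters, and those of Ntrk3 and Ret were not used here. These matches are letters in a window and not evidence of binding. Capitals mark the match in each sequence.
Bdnf, chr2:109692186-109692485, plus strand: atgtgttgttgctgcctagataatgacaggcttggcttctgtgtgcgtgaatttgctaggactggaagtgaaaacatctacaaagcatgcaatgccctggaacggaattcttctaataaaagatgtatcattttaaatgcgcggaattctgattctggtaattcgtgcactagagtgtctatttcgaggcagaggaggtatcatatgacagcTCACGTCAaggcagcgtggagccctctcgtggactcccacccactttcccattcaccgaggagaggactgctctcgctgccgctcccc
Gdnf, chr15:7809798-7810097, plus strand: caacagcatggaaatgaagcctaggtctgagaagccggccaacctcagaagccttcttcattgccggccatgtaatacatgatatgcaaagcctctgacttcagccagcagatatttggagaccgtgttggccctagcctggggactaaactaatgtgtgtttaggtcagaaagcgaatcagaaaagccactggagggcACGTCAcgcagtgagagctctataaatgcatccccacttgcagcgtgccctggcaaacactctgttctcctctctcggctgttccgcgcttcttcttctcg

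The deposited values are linear signal intensities, here called signals, and differences are Ncam-/- minus Ncam+/+ on the scale log2(signal + 16), which understates the change of dim genes. Probe sets were tested when their mean log2 value reached the 40th percentile, equal to a signal of 72.2, which kept 7453. The targeted gene was read first. The brightest Ncam1 probe set had signals of 276.2, 208.7 and 327.4 in Ncam-/- brains, against 1346.4, 1448.0 and 1216.5 in Ncam+/+ brains. All 3 knockout brains lay below every wild-type brain. Labels of the 6 arrays thus match this gene, although the position of the deletion relative to this probe set is not stated in the labels.

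Some arrays stood apart in genes of single brain regions. In Ncam-/- replicate 2 the summed signal of 8 cerebellar marker genes was 2316, against 8464 to 9702 on the other 5 arrays. The sum of 6 pituitary genes was 15600 in Ncam-/- replicate 1, 1171 and 1198 in Ncam-/- replicates 2 and 3, and 858 to 980 in Ncam+/+ brains. All 3 knockout brains thus lay above the wild-type brains in this sum, replicate 1 by far the most. The groups did not overlap for 3 of 5 tested pituitary genes, against 12.8% of all genes with 1 probe set a gene. Gh, the largest part in replicate 1, overlapped, with 355.5 and 409.7 in Ncam-/- replicates 2 and 3 and 222.4 to 376.8 in Ncam+/+ brains. In RNA of a whole brain, the amount of a region in the sample, the number of cells of a type and the RNA per cell cannot be told apart. None of them was tested. The summed markers of oligodendrocytes ranged from 10169 to 10809 in Ncam-/- brains and from 11662 to 11958 in Ncam+/+ brains. Of the genes of meninges and vessels, 3 of the 7 tested were higher and 4 lower, and the groups overlapped for all 7. Their sum was 9251 to 10568 in Ncam-/- and 10579 to 12244 in Ncam+/+ brains, and its largest part, Ptgds, overlapped at 5273 to 6457 in Ncam-/- and 6074 to 8120 in Ncam+/+ brains. Neuronal markers overlapped, at 20191 to 20799 in Ncam-/- and 20371 to 21010 in Ncam+/+ brains. Those of cortex and hippocampus also overlapped, at 2294 to 2934 in Ncam-/- and 2479 to 2909 in Ncam+/+ brains. Within that sum Ncam-/- replicate 2 stood apart in both directions. It had Neurod1 at 50.8, against 186.5 to 234.2 on the other 5 arrays, and Neurod6 at 208.9, against 18.9 to 103.2. Catecholamine neuron markers summed to 678 to 802 in Ncam-/- and 655 to 789 in Ncam+/+ brains, and cholinergic ones to 638 to 690 in Ncam-/- and 629 to 805 in Ncam+/+ brains. Most of the cholinergic sum was Ache, at 548.3 to 615.3 in Ncam-/- and 599.5 to 768.5 in Ncam+/+ brains. Isl1, under the filter limit, was higher without overlap, at 14.5 to 20.5 in Ncam-/- and 7.13 to 10.8 in Ncam+/+ brains. Lhx8 and Slc18a3, also under the limit, overlapped. Markers of cranial nerve and ganglion summed to 271 to 357 in Ncam-/- and 263 to 404 in Ncam+/+ brains. Of the liver list, Ttr, which the choroid plexus also makes, read 1875.2, 1293.6 and 2103.4 in Ncam-/- and 1734.5, 1632.6 and 2031.4 in Ncam+/+ brains. Alb, under the filter limit, read 61.9, 74.5 and 63.3 in Ncam-/- and 23.8, 58.2 and 44.9 in Ncam+/+ brains, without overlap, and Apoa1 was between 11.6 and 17.0 on all arrays. No marker of any list was at 0 on any array. For the Gapdh control, the signal at the 3' end over that at the 5' end, a sign of RNA quality, was 0.826, 0.811 and 0.812 in Ncam-/- and 0.779, 0.798 and 0.768 in Ncam+/+ brains, without overlap. The same ratio of actin overlapped, at 1.22, 1.18 and 1.14 in Ncam-/- and 1.09, 1.08 and 1.20 in Ncam+/+ brains.

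**Figure D1:**
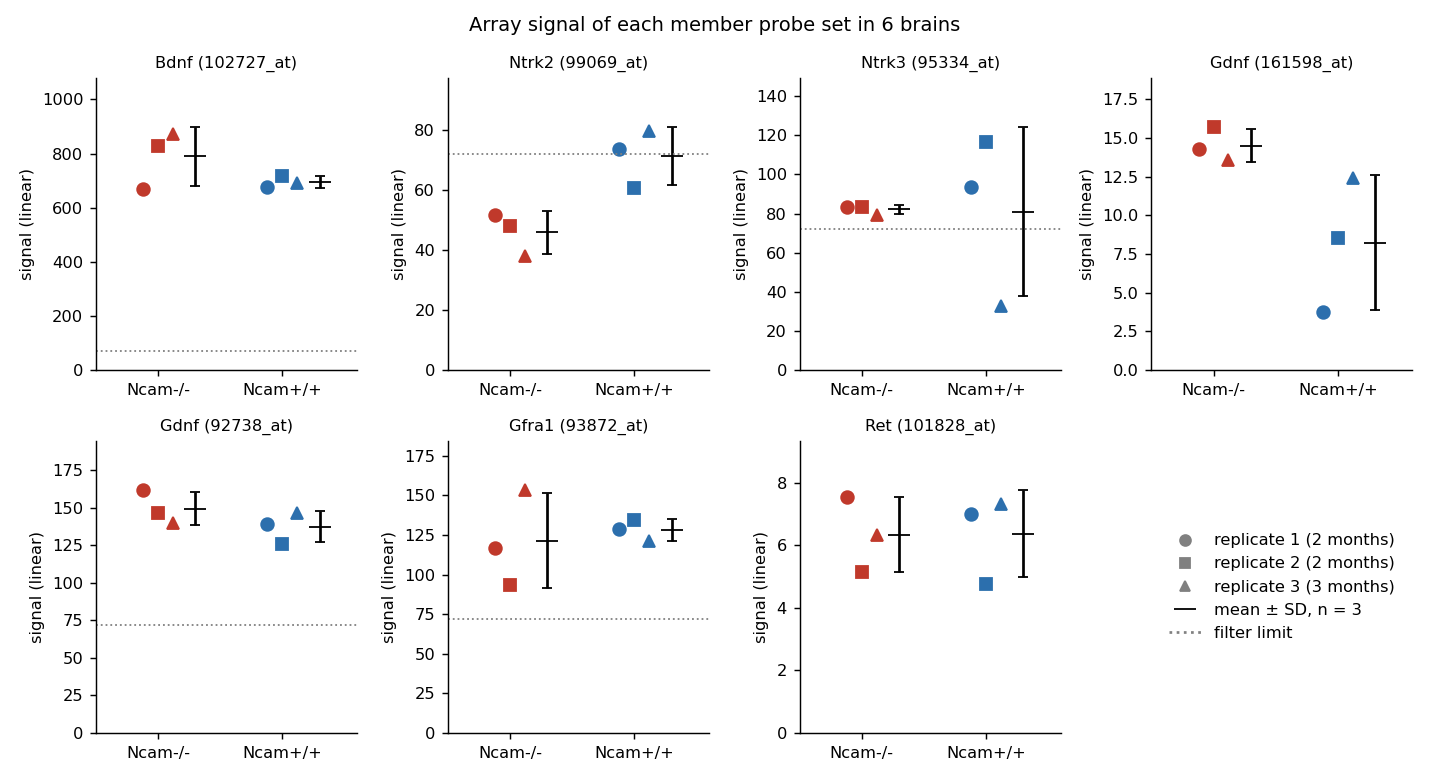
Linear signal of the 7 member probe sets in each of the 6 brains, with Ncam-/- left of Ncam+/+, black bars for the mean ± SD (n = 3 each) and a dotted line at the filter limit of 72.2 where it lies within the axis. Ntrk2 and the dim Gdnf probe set have no overlap between the groups, and every other panel overlaps.

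None of the 4 member probe sets bright enough to be tested, those of Bdnf, Gdnf, Gfra1 and Ntrk3, passed at an adjusted p under 0.05. At an unadjusted p under 0.05 in limma, fitted across all 7453 probe sets, the count was also 0. Over all tested probe sets 2 passed the adjusted threshold (0.0268%) and 517 the unadjusted one (6.94%). The brightest Ncam1 probe set was among the 2 that passed (adjusted p = 0.00076 in limma). The groups did not overlap for 960 of the tested probe sets (12.9%) and for 0 of these 4. The probe sets of Ntrk2, Ret and the second one of Gdnf lay under the filter limit and are described separately.

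Among the ligands, Bdnf lay above every wild-type brain in 2 of 3 knockout brains and did not pass the test. Its signal was 667.8, 829.5 and 872.4 in Ncam-/- replicates 1, 2 and 3, against 674.8, 717.8 and 689.8 in Ncam+/+ replicates 1, 2 and 3. Knockout replicate 1 lay below all wild-type brains, so the groups overlapped. The mean was 789.9 ± 107.9 in Ncam-/- and 694.1 ± 21.9 in Ncam+/+ brains (SD, n = 3 each). The log2 difference was 0.17 ± 0.11 (SE) with an adjusted p of 0.763 in limma, and its 95% interval from -0.07 to 0.41 corresponds to ratios between 0.955 and 1.33. A change of Bdnf beyond that interval was not seen, while smaller changes in either direction were not resolved with 3 animals a group. The value depended on single knockout animals, being 0.29 without replicate 1 and 0.10 without replicate 3 (adjusted p 0.675 and 0.823 in limma). Replicate 1 was the animal with the high pituitary signal. Without the animal of low cerebellar signal the difference was 0.13.

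Gdnf, the ligand that NCAM itself can receive together with GFRα1, was read by a brighter and a dim probe set. The brighter one gave 162.0, 146.6 and 140.1 in Ncam-/- brains, against 139.5, 126.0 and 146.3 in Ncam+/+ brains. Each knockout animal lay above the wild-type mean, yet the highest wild-type animal exceeded the lowest knockout animal. The log2 difference was 0.11 ± 0.13 (SE, n = 3 each), with a 95% interval from -0.18 to 0.40 and an adjusted p of 0.863 in limma. The dim probe set gave 14.3, 15.7 and 13.6 in Ncam-/- brains, against 3.74, 8.51 and 12.4 in Ncam+/+ brains. Here all 3 knockout values were above all wild-type values, at signals far below the filter limit and below the pseudocount of 16. With the filter removed its log2 difference was 0.35 ± 0.15 (adjusted p = 0.80 in limma over 12422 probe sets), and with a pseudocount of 1 or 64 it was 0.87 or 0.12. By an exact permutation test (two-sided) p was 0.1, as low as a design of 3 against 3 animals can reach. Without the filter 818 of 12422 probe sets (6.59%) were higher in every knockout brain than in any wild-type brain, and so were 365 of the 4969 under the limit (7.35%). The brighter probe set did not show the same separation.

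Among the receptors of neurotrophins, Ntrk2 was the member whose groups stood furthest apart relative to their spread, although its probe set was dim. Its product TrkB is the main receptor of BDNF, and a shortened form without the kinase is abundant in astrocytes. The Ntrk2 signal was 51.9, 48.1 and 38.2 in Ncam-/- brains, against 73.7, 60.7 and 79.7 in Ncam+/+ brains. Every knockout animal lay below every wild-type animal. The means were 46.0 ± 7.07 in Ncam-/- and 71.4 ± 9.73 in Ncam+/+ brains (SD, n = 3 each), a log2 difference of -0.49. Its mean over all 6 arrays, 58.7, lay below the limit of 72.2, so it was not part of the planned test. With the filter removed the standard error was 0.19, the unadjusted p 0.0322 and the adjusted p 0.794 in limma, so it did not pass. The 95% interval of that fit ran from -0.93 to -0.05. The same exact permutation test gave 0.1, again the lowest p possible here. In the same unfiltered set 677 of 12422 probe sets (5.45%) were lower in every knockout brain than in any wild-type brain, as were 170 of the 4969 under the limit (3.42%). An unadjusted p under 0.05 was reached by 779 (6.27%) and an adjusted one by 1 (0.00805%), the brightest Ncam1 probe set. With any 1 array left out the Ntrk2 difference lay between -0.59 and -0.40, and it was -0.33 in the 2-month-old animals alone. Its sign could not change in these subsets, because the groups did not overlap. No transcript form could be assigned to this probe set from the sources used here, and its dimness says nothing of how much Ntrk2 RNA the brain holds.

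None of 6 measured astrocyte markers passed after adjustment, with 4 lower and 2 higher in Ncam-/- brains. The groups did not overlap for 3 of the 6, against 12.8% of all genes with 1 probe set a gene. Their summed signal was 11892, 10928 and 12005 in Ncam-/- brains, against 12138, 12412 and 12509 in Ncam+/+ brains. The calcium-binding protein gene S100b had a log2 difference of -0.41 ± 0.14 (SE) and the water channel gene Aqp4 one of -0.28 ± 0.10, both without overlap and both short of the adjusted threshold (0.66 and 0.719 in limma). Gja1, a gap junction gene of astrocytes, was higher in all 3 knockout brains at 0.17 ± 0.07 (adjusted p = 0.719 in limma). The remaining 3 markers, Gfap, Aldoc and Slc1a2, overlapped. The part of astrocyte content and of the Gapdh 3' to 5' ratio, which that of actin did not match, in the Ntrk2 difference was not tested. Nor was the part of other cell types. Of the oligodendrocyte markers 4 of 4 tested were lower in Ncam-/- brains, 3 of them without overlap.

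Ntrk3, which encodes the neurotrophin 3 receptor TrkC, was nearly constant among knockout brains and scattered among wild-type brains. Its signal was 83.2, 83.6 and 79.5 in Ncam-/- brains, against 93.6, 116.5 and 32.8 in Ncam+/+ brains. The 3 knockout values lay between the lowest wild-type value, from the 3-month-old animal, and the others. The mean was 82.1 ± 2.29 in Ncam-/- and 81.0 ± 43.2 in Ncam+/+ brains (SD, n = 3 each). The log2 difference was 0.14 ± 0.33 (SE, n = 3 each), with a 95% interval from -0.61 to 0.89 or ratios of 0.654 to 1.85, and an adjusted p of 0.948 in limma. Its sign rested on 1 array, since it was -0.30 ± 0.18 without wild-type replicate 3 (adjusted p = 0.964 in limma). The 3-month-old knockout brain, at 79.5, showed no such low value.

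Of the receptors of GDNF, Gfra1 did not differ beyond the spread between animals and Ret was too dim to be tested. Gfra1, which encodes the membrane-anchored subunit that binds GDNF, gave 117.0, 93.6 and 153.5 in Ncam-/- brains, against 128.6, 134.5 and 121.1 in Ncam+/+ brains. The knockout brains held both the lowest and the highest of the 6 values, and the wild-type brains lay close together. The SD was 30.2 in Ncam-/- and 6.68 in Ncam+/+ brains. The log2 difference was -0.09 ± 0.17 (SE, n = 3 each), with a 95% interval from -0.49 to 0.30, or ratios of 0.714 to 1.23, and an adjusted p of 0.929 in limma. The lowest value came from knockout replicate 2, the animal with the low cerebellar sum, and without it the difference was 0.06.

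Ret, the signalling tyrosine kinase of the GDNF receptor, had signals of 7.55, 5.13 and 6.34 in Ncam-/- brains and of 7.01, 4.76 and 7.33 in Ncam+/+ brains. The groups overlapped. All values lay below the pseudocount of 16, as did those of the dim Gdnf probe set, and at such signals this scale compresses any difference. With the filter removed the log2 difference of Ret was 0.00 ± 0.10 (SE, n = 3 each). Th, which marks the catecholamine neurons in which Ret is known to be used, had 255.7, 281.9 and 186.6 in Ncam-/- brains and 214.4, 244.3 and 287.1 in Ncam+/+ brains, also overlapping.

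**Figure D2:**
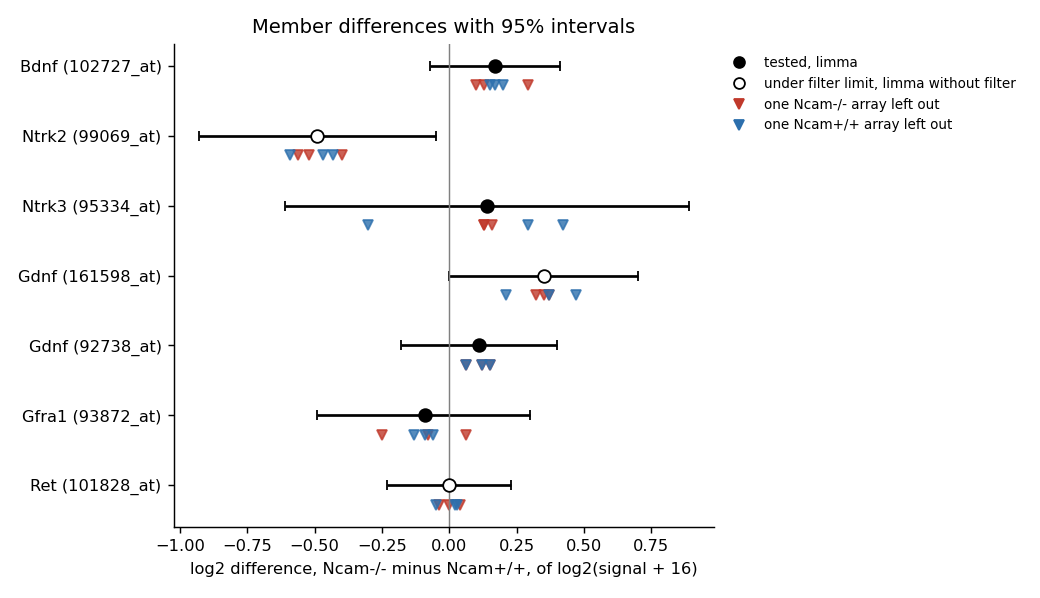
Log2 difference (Ncam-/- minus Ncam+/+) of each member probe set with its 95% interval, where filled circles were tested and open circles lay under the filter limit and come from the unfiltered fit. Triangles are the differences with 1 array left out, which change sign for Ntrk3 (from -0.30 to 0.42), Gfra1 (from -0.25 to 0.06) and Ret (from -0.05 to 0.04). For Ntrk2 and the dim Gdnf probe set the sign could not change, because their groups do not overlap.

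The probe sets most like Bdnf over the 6 arrays, by Pearson correlation of log2 values, were those of Sh3rf1 (r = 0.988) and Dnajc21 (r = 0.984). For Gfra1 they were Gcdh (r = 0.981) and Fam102a (r = 0.979). These describe 6 arrays that share their groups and ages, among 6735 probe sets of other genes, of which 40 reached an r over 0.9 with Bdnf and 64 with Gfra1. Ntrk2 lay under the filter limit and was not compared in this way.

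Genes that make, bind or transmit these factors were followed in 5 lists with 108 genes. Of these 73 were on the array and 60 bright enough to be tested, with 1 probe set a gene. None of the 60 passed after adjustment over all probe sets, and 2 had an unadjusted p under 0.05 in limma (3.33%). Over 5665 genes measured in the same way 1 passed (0.0177%) and 384 had such an unadjusted p (6.78%). The 1 gene that passed was Ncam1, the targeted gene. The groups did not overlap for 6 of the 60 (10.0%), against 726 of all 5665 genes (12.8%). Values were higher for 38 and lower for 22 of the 60, with a median log2 difference of 0.04, where all genes had 2790 higher, 2875 lower and a median of 0.

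**Figure D3:**
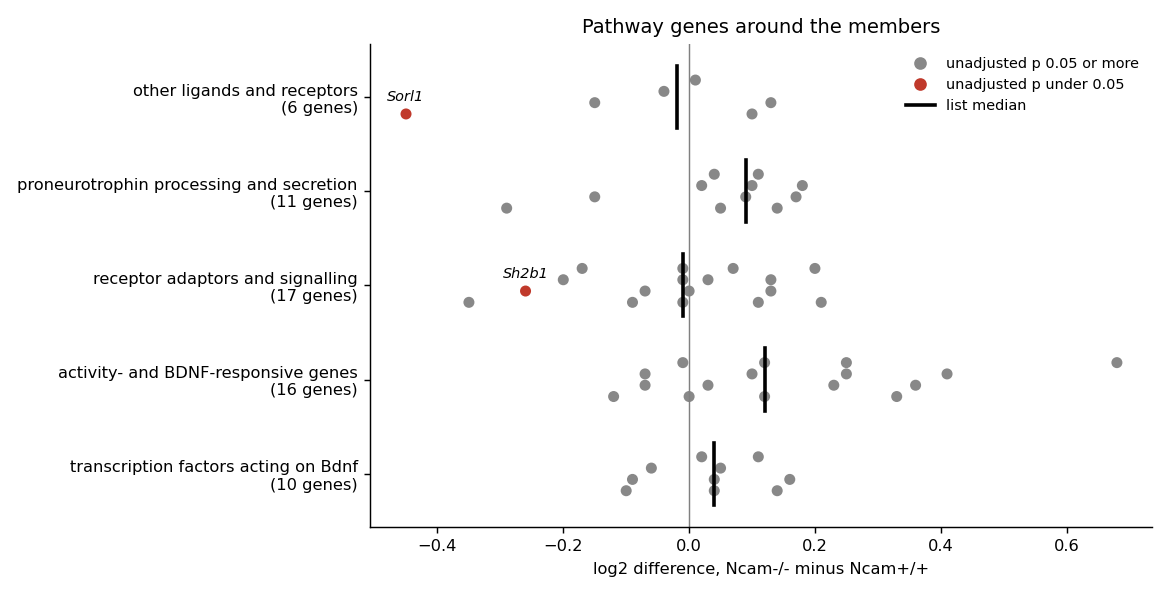
Log2 difference (Ncam-/- minus Ncam+/+) of each tested gene in the 5 lists, 1 point a gene, with black bars at the list medians and red for an unadjusted p under 0.05. Red points are Sorl1 at -0.45 and Sh2b1 at -0.26, and the medians lie between -0.02 and 0.12.

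Among other ligands and receptors of the family, 6 of 16 listed genes were measured, 3 higher and 3 lower. Sorl1, a sorting receptor that carries TrkB and other cargo through endosomes, had signals of 216.9, 152.6 and 149.8 in Ncam-/- brains, against 265.5, 221.8 and 230.0 in Ncam+/+ brains. Its knockout values lay below all wild-type values, replicate 1 narrowly so. The log2 difference was -0.45 ± 0.15 (SE, n = 3 each), with an adjusted p of 0.66 in limma, so it did not pass. Nrtn, the GDNF relative neurturin, gave -0.15 ± 0.11, and its receptor gene Gfra2 gave 0.01 ± 0.11. The GDNF family ligands artemin and persephin, from Artn and Pspn, had 0.10 ± 0.22 and 0.13 ± 0.19, and Gfra3, for the artemin receptor, -0.04 ± 0.16.

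Proneurotrophins are cut by convertases and released from dense-core vesicles, and 11 of the 16 genes listed for these steps were tested. Of these 9 were higher and 2 lower, with a median of 0.09 and none past either threshold. Scg2, a granin of dense-core vesicles, had 1335.9, 1438.1 and 1266.7 in Ncam-/- brains, against 1174.3, 1345.7 and 1086.2 in Ncam+/+ brains, with overlap. Plat, the tissue plasminogen activator that starts the cascade cutting proBDNF, had 536.5, 526.6 and 535.0 in Ncam-/- brains, against 435.7, 510.7 and 503.4 in Ncam+/+ brains, without overlap. Their log2 differences were 0.17 ± 0.09 and 0.14 ± 0.09 (adjusted p 0.751 and 0.784 in limma). Furin, a convertase of proneurotrophins, had 0.10 ± 0.09.

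Adaptors and kinases below the receptors showed 8 higher and 9 lower genes of 17 tested, with a median of -0.01. Sh2b1, an adaptor that binds active Trk receptors, had signals of 425.6, 391.7 and 378.2 in Ncam-/- brains, against 423.2, 508.4 and 516.7 in Ncam+/+ brains. The groups overlapped by replicate 1 of each, and the log2 difference was -0.26 ± 0.10 (SE, n = 3 each, adjusted p = 0.719 in limma). Map2k2, a kinase that activates ERK, had -0.20 ± 0.10 with 3 of 3 knockout brains below all wild-type brains (adjusted p = 0.743 in limma). The other genes without overlap were the docking protein gene Gab1, lower at -0.17 ± 0.09, and Plcg1, a phospholipase recruited by TrkB, higher at 0.20 ± 0.11. A second Gab1 probe set that passed the filter had the opposite sign, at 0.33, so the probe sets of Gab1 disagree.

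Genes that respond to neuronal activity and to BDNF had their highest list median in replicate 3 of both genotypes. Of 16 tested, 11 were higher and 5 lower in Ncam-/- brains, with a median of 0.12 and none past either threshold. The groups did not overlap for 1 of the 16, Inhba at 0.23 ± 0.14 (SE), against 12.8% of all genes with 1 probe set a gene. Dusp6, a phosphatase of ERK, had the lowest p of this list, with 480.0, 672.1 and 682.3 in Ncam-/- brains against 366.0, 386.0 and 651.5 in Ncam+/+ brains (log2 difference 0.41 ± 0.22, adjusted p = 0.743 in limma). Fosl2, a transcription factor of the Fos family, was next at 0.36 ± 0.19. The immediate early gene Fos read 208.3, 304.4 and 809.0 in Ncam-/- and 113.9, 146.6 and 668.1 in Ncam+/+ brains. In both genotypes the highest Fos value belonged to replicate 3, the 3-month-old animal. Dusp1, a phosphatase of the same class as Dusp6, read 607.2, 525.6 and 1178.3 in Ncam-/- and 513.4, 522.3 and 1137.9 in Ncam+/+ brains, again highest in replicate 3. The list median relative to the wild-type mean covers all 18 listed genes on the array. It was -0.07, 0.16 and 0.42 in Ncam-/- and -0.13, -0.17 and 0.25 in Ncam+/+ replicates 1, 2 and 3. Each genotype held 1 animal of 3 months, so age and single animal cannot be told apart. Bdnf had its highest value in the same knockout animal, replicate 3, but in Ncam+/+ brains its highest value was in replicate 2. Inhba, Fos and Dusp1 were named after their values were seen.

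**Figure D4:**
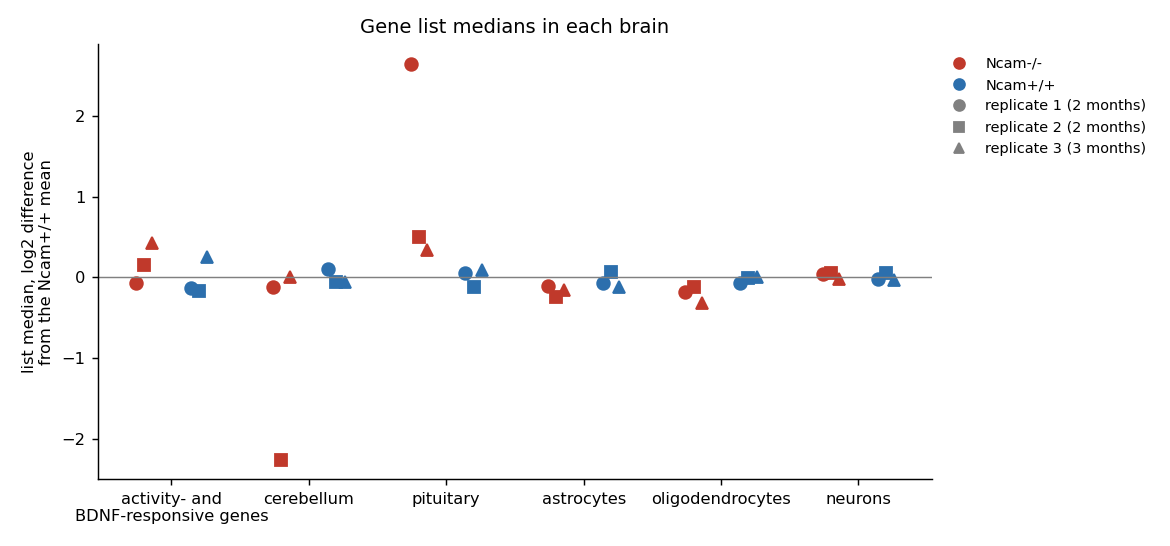
Median over each gene list of the log2 difference from the Ncam+/+ mean, 1 point a brain, with Ncam-/- left of Ncam+/+ and triangles for the 3-month-old animals. Replicate 3 is highest for activity- and BDNF-responsive genes in both genotypes (0.42 in Ncam-/- and 0.25 in Ncam+/+), Ncam-/- replicate 2 is at -2.25 for cerebellar genes and Ncam-/- replicate 1 at 2.64 for pituitary genes.

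Transcription factors that act on Bdnf had 7 higher and 3 lower values among 10 tested genes, with differences from -0.10 to 0.16 and a median of 0.04. Usf2, one of the upstream stimulatory factors, had 0.14 ± 0.14, and Crem, a relative of CREB, 0.16 ± 0.17 (adjusted p 0.845 and 0.858 in limma). None passed either threshold, and the groups overlapped for all 10. Creb1 itself lay under the filter limit, with 62.4, 85.7 and 61.7 in Ncam-/- brains and 61.7, 72.5 and 83.9 in Ncam+/+ brains.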

How the data were processed

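Per the labels, total brain RNA of 6 mice was hybridised as biotinylated cRNA to one-colour arrays, and genotype, age and replicate number come from the labels. The authors deposited linear signal intensities per probe set, and the submitters' processing notes name GCOS 1.4. The settings of that software are not stated in the labels. The mean of the middle 96% of values lay between 299.9 and 300.0 on all arrays, so each appears scaled to 1 target, which would hide a change in total RNA. No detection calls were used.

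After removal of 66 control entries 12422 probe sets remained. The platform annotation, which can be outdated, gave a single gene symbol for 10833 of them, several for 396 and no symbol for 1193. Values were taken as log2(signal + 16) and kept at or above the 40th percentile of the mean. The groups were tested in R 4.3.3 by limma 3.58.1 (lmFit and trended eBayes, two-sided, without covariates). The Benjamini-Hochberg adjustment ran over every kept probe set, with a threshold of 0.05. Precision is limited by the number of arrays, the median standard error being 0.12 on the log2 scale. Members are reported by rule in full. For the 5 pathway lists, each gene was represented by its probe set of highest mean, and the 2 genes with the lowest p and any at an unadjusted p under 0.05 were named. Further list genes (Gfra2, Gfra3, Artn, Pspn, Furin, Gab1, Plcg1, Inhba, Fos, Dusp1, Creb1) and the marker genes were named after their values were seen. Members and lists were chosen with earlier results of these data known.

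In 20 simulations, 200 of 7453 probe sets were changed. The comparison of knockout against wild type found 39.3% of those changed by 0.5 (log2), 79.2% of those changed by 1 and 85.5% of those changed by 2. Of its calls 5.22% were false. The adjustment is less strict where many probe sets change, and only 2 passed in the real data. These shares therefore do not give the power of the real comparison, where an Ncam1 probe set at -0.68 ± 0.15 (SE) did not pass (adjusted p = 0.416 in limma). Pairing by replicate number was checked by the correlation of deviations from the group means. It was 0.015, 0.147 and 0.201 for replicates 1, 2 and 3, and between -0.221 and 0.081 for unlike numbers. The labels do not say that the numbers pair animals, so the main test was unpaired and the replicate block was an alternative. Promoter windows are from RefSeq, GRCm38.p6.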

Additional observations from a re-analysis of the deposited data

How the results depend on the processing

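Over 20 alternatives, 19 planned and 1 added after the data had been seen, 0 member probe sets and 0 of the pathway genes passed the adjusted threshold in limma. At an unadjusted p under 0.05, Bdnf was reached without knockout replicate 1, and Ntrk2 without the filter. Bdnf was also reached with knockout replicate 3 alone against wild type, which sets the animal with the highest Bdnf signal against 3 and takes its spread from the wild-type animals. All probe sets passing numbered 2 as reported, and 1 with quantile normalization, median centring, no filter, no intensity trend, the brightest probe set or the mean of the probe sets of a gene, and with knockout replicate 3 alone. They numbered 4 with array weights, 3 in the 2-month-old animals alone and 1 to 2 with 1 array left out. Bdnf kept a positive difference in all 20 (0.08 to 0.32), as did the brighter Gdnf probe set in 19 (0.03 to 0.19). For Bdnf it was lowest at 0.08 with array weights and 0.09 in the 2-month-old animals alone. The replicate block, age covariate, filters and intensity trend cannot change the size of a difference in this balanced design. Nor can the brightest probe set or the mean of the probe sets for Bdnf and Gdnf, as each had 1 probe set past the filter. These settings are therefore no check of the sign. The Ntrk2 difference was negative in 12 (-0.68 to -0.30), -0.68 being knockout replicate 3 alone. Since its groups did not overlap, leaving out arrays or changing the pseudocount could not turn this sign. Ntrk3 turned to -0.28 in 2-month-old animals alone, -0.30 without wild-type replicate 3 and -0.02 with array weights, and ranged from -0.30 to 0.42 with 1 array left out. Ret, untested, ranged from -0.05 to 0.04. Gfra1 turned to 0.06 without knockout replicate 2 and 0.24 with knockout replicate 3 alone, and ranged from -0.25 to 0.06 with 1 array left out. The cause was not tested for any of these. With the replicate block 2 probe sets passed, 0 of them members, and Bdnf had 0.17 ± 0.09 (adjusted p = 0.607 in limma). Every sample except knockout replicate 1 correlated best with its own number, although for wild-type replicate 1 this r was only 0.015. Replicate 3 was also the older animal in both genotypes, so these correlations cannot decide whether the numbers pair animals. Signal over background limits Ntrk2, Ret and the second Gdnf probe set, which lay under the filter limit.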
